A study of Mus musculus with 2 samples.

Results

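The circadian clock output genes *Dbp*, *Per1*, *Per2*, *Per3*, *Nr1d1*, *Nr1d2*, *Ciart* and *Tef* were followed by name in 2 sections of healing mouse femur, 1 Control and 1 Loaded. Counts of 7 of these 8 genes, out of 19465 genes measured, were analysed, and *Ciart* was not analysed here. The comparison asked whether the sections differ in the levels of genes that mark the time of day, in bone, in muscle and in the rest of the tissue.

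Both mice were female bone cell reporter (BCR) mice, in which Ibsp of osteoblasts and Acp5 of osteoclasts carry fluorescent proteins (eGFP and mCherry). Each had a femoral osteotomy at 12 weeks of age that was held by an external fixator, under isoflurane and with Tramal for pain, and each was collected at 17 weeks of age. Between weeks 3 and 5 the Loaded femur received cyclic loading of 8 to 16 N 3 times per week, and the Control femur received 0 N sham-loading. Collection followed the last session by 10 hours, and the mice lived in 12 hours of light and 12 hours of dark. The clock time of collection is not given in the sources used here, so a time of day could not be assigned to either section.

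Gene expression was measured with the Visium assay for fixed tissue, in which probe pairs bound to each transcript are caught by barcoded spots, and unique molecular identifiers (UMIs) count the molecules. Bone spots are those that the study marked as bone between the inner pins. Muscle spots lie outside them and have at least 10% of their UMIs in a list of 22 skeletal muscle genes, and remaining spots are all others. The Control section gave 131 bone, 1044 muscle and 723 remaining spots, with 557259, 6937368 and 1489585 UMIs. The Loaded section gave 146, 686 and 599 spots, with 409020, 2887064 and 1612723 UMIs. All 8 of 8 osteoblast and osteocyte genes were detected in every region. They made up 2% of UMIs in Control bone spots and 6.52% in Loaded bone spots. In remaining spots they made up 2.58% and 1.88%, so that in Control their share was higher there than in bone spots. In muscle spots it was 0.361% and 0.64%. Muscle RNA was not evenly shared, however, at 16.7% of UMIs in Control bone and 8.53% in Loaded bone, and at 36.4% and 25.7% in muscle spots. The 10 granulocyte genes, a sign of marrow, were all detected and made up 0.0894% and 0.368% of UMIs in bone spots and 0.253% and 0.569% in remaining spots. Adipocyte genes made up 0.0544% of UMIs in Control and 0.067% in Loaded bone spots, and 0.389% and 0.125% in remaining spots. Genes of tendon and fibrous tissue made up 0.344% and 0.163% in bone spots and 0.366% and 0.179% in remaining spots. The part of unequal bone, marrow, fat and fibrous tissue content in the differences given here was not tested.

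The mammalian clock is a loop of transcription. The activators BMAL1 (gene *Arntl*), CLOCK and NPAS2 bind E-box sequences and turn on the *Per* and *Cry* genes, whose proteins then repress the activators. The same activators turn on *Nr1d1* and *Nr1d2*, nuclear receptors that repress *Arntl*, and *Dbp*, which with *Tef* and *Hlf* forms the PAR bZIP family that binds D-box sequences. In most tissues the transcripts of *Nr1d1* and *Dbp* peak earlier in the day than that of *Per2*, and *Arntl* runs in antiphase to them. Bone and skeletal muscle each hold such a clock, and *Per* genes also respond to glucocorticoids and to other signals from outside the cell.

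The start site sequences show which of these motifs lie close to each member. RefSeq windows on GRCm38.p6, from 250 bases before to 50 bases after a start, were at hand for 6 of the 7 genes analysed. The 4 windows below carry the E-box CACGTG (*Per1*, *Tef*), a pair of D-box matches (*Per3*), or neither (*Nr1d1*, the member with the largest difference). Letters are given 5′ to 3′ on the strand of the gene, with motif matches in capitals.
*Per1*, chr11:69098699-69098998, plus strand: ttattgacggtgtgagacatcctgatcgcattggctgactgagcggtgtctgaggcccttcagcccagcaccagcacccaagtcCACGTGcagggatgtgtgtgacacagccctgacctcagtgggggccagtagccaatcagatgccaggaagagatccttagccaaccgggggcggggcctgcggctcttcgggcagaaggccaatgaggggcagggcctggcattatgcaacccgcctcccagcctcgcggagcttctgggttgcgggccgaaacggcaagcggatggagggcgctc
*Per3*, chr4:151044616-151044915, minus strand: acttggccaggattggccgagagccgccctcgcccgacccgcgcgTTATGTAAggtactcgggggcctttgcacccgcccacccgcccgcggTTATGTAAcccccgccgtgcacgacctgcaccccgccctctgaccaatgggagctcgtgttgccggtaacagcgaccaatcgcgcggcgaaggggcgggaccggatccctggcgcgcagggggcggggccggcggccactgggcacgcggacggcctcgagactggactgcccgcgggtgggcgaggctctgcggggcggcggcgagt
*Tef*, chr15:81802423-81802722, plus strand: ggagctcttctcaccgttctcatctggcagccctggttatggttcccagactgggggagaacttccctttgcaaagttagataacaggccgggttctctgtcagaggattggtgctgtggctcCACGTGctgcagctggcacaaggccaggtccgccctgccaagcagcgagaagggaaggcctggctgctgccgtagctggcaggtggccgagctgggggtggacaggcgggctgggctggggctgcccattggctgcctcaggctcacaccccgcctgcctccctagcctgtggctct
*Nr1d1*, chr11:98775328-98775627, minus strand: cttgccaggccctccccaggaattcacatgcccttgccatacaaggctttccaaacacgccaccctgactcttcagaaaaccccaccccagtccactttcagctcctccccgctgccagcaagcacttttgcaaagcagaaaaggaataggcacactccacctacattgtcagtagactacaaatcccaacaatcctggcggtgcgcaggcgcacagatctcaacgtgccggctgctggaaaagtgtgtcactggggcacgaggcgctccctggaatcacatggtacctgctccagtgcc
The E-box CACGTG, searched on both strands, was found in 7.15% of 32851 RefSeq windows of the same length. The D-box, written TTATGTAA or TTACGTAA, was found in 1.06% of them. The match of *Per1* lay at -166 from the start, that of *Tef* at -127 and those of *Per3* at -205 and -158. A second window of *Tef* held 1 E-box at -138, while the windows of *Dbp*, *Nr1d1* and *Nr1d2* and a second window of *Per1* held neither motif. The RORE, an A-rich stretch before GGTCA that was present in 0.435% of windows, was found in none of the 8 windows of these 6 genes. Absence from these windows says only that the letters do not occur there.

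The genes were detected in both sections in every region. Summed over the 7 genes, bone spots held 757 UMIs in Control and 381 in Loaded, muscle spots 6029 and 3606, and remaining spots 1818 and 1434. After division by size factors, which put spots of unequal depth on 1 scale, this came to 4.71 normalized UMIs per spot in Control bone and 3.03 in Loaded bone. In muscle spots the order was the opposite, at 4.25 and 4.97. Remaining spots resembled bone, at 4.21 and 3.07. *Tef*, the most abundant member, made up 26.3 to 39.4% of these UMIs across the 6 groups of spots.

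*Nr1d1* was the one clock output gene past 2-fold, lower in Loaded than in Control bone and remaining spots, and the other members differed less. Each difference is given as the log2 ratio of Loaded over Control of the normalized UMIs, with a 95% interval (exact, conditional binomial) for counting error alone. With 1 section per group there is no replicate and no test, and a difference between these mice cannot be told apart from an effect of loading. The median over the 7 genes was -0.66 in bone, 0.23 in muscle and -0.46 in remaining spots, beside medians of 0.05, 0.12 and -0.05 over all genes with at least 10 UMIs (10003, 12767 and 14884 genes). In bone 7 of 7 members were below 0, as were 47.6% of all genes. In muscle 7 of 7 were above 0, as were 58.5% of all genes, and in remaining spots 6 of 7 were below 0, as were 53.3%. Past a 2-fold difference lay 1 member in bone, where 9.5% of all genes were past it in the same direction, and 1 in remaining spots, where 7.36% were, each time *Nr1d1* and each time lower in Loaded. No member was past it in muscle, where 4.48% of genes lay lower and 7.9% higher. Past 1.5-fold lay 4 members in bone (20.4% of all genes lower), 2 in remaining spots (18.9%) and 1 in muscle, higher in Loaded (21.4%). In spots that pool many cells, fewer cells of a type and less RNA per cell cannot be told apart.

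**Figure D1:**
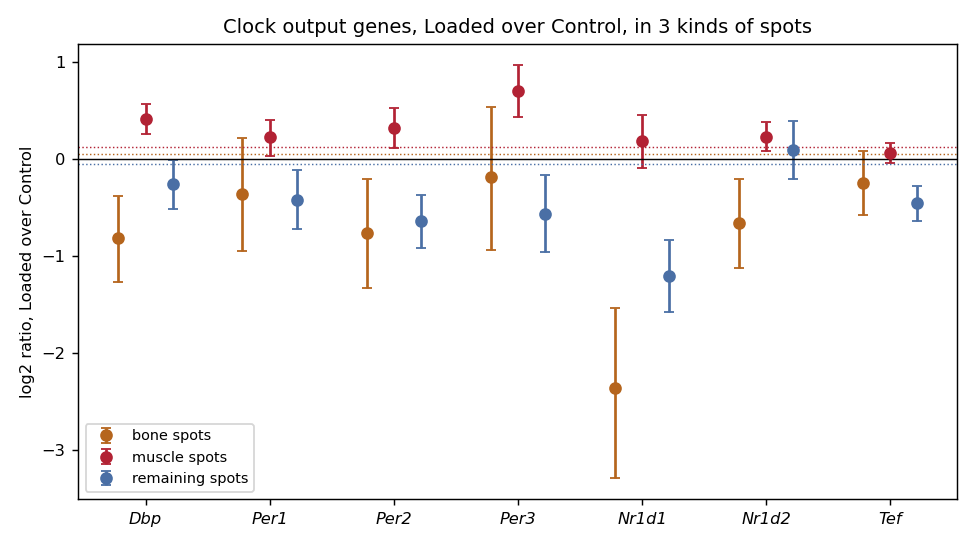
The log2 ratio of Loaded over Control (vertical axis) is plotted for each of the 7 genes in bone, muscle and remaining spots, with exact conditional binomial 95% intervals for counting error as bars and the median of all genes as dotted lines. *Nr1d1* stands lowest in bone (-2.36) and in remaining spots (-1.21), while all muscle values lie between 0.06 and 0.70.

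*Nr1d1* encodes REV-ERBα, the nuclear receptor that represses *Arntl* and links the clock to metabolism. In bone spots 92 UMIs were counted in Control and 14 in Loaded, or 0.573 and 0.112 normalized UMIs per spot. Each region of each section was divided into 4 blocks of about equal spot number to show how a level varies within a section. The 4 Control bone blocks had 0.439, 0.283, 0.601 and 0.845 and the 4 Loaded blocks 0.0586, 0.0925, 0.211 and 0.0775, so that the sections did not overlap. Such a separation, with Loaded below, was seen in bone for 3.08% of all genes and for 1 of the 7 members. The log2 ratio was -2.36 (interval -3.29 to -1.54), and it lay between -2.92 and -1.89 when any 1 block was left out. In remaining spots the 192 Control and 90 Loaded UMIs gave 0.445 and 0.193 and a log2 ratio of -1.21 (-1.58 to -0.84). There the blocks again did not overlap, at 0.282 to 0.551 in Control and 0.0665 to 0.258 in Loaded, as was the case for 2.41% of all genes. Without Control block 2 or Loaded block 2 the ratio in remaining spots was -0.99 and -0.96, just inside the 2-fold limit. In muscle spots 318 and 185 UMIs gave 0.224 and 0.255, and the ratio of 0.18 (-0.09 to 0.45) had an interval that held 0.

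*Nr1d2* encodes REV-ERBβ, the paralog with overlapping function, and it did not follow *Nr1d1* in every region. In bone 125 Control and 62 Loaded UMIs gave 0.778 and 0.494 normalized UMIs per spot, a log2 ratio of -0.66 (-1.12 to -0.21), with Control blocks at 0.622 to 0.915 and Loaded blocks at 0.247 to 0.693. These blocks overlapped. In remaining spots the ratio was 0.09 (-0.21 to 0.39) from 174 and 200 UMIs, the only member above 0 there, and without Control block 2 it was 0.87. In muscle it was 0.23 (0.08 to 0.38), from 988 and 594 UMIs.

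*Dbp* and *Tef* encode PAR bZIP activators of D-box genes. *Dbp* had 142 and 63 UMIs in Control and Loaded bone, or 0.884 and 0.502 normalized UMIs per spot, and a log2 ratio of -0.82 (-1.27 to -0.38). The Control bone blocks had 0.585, 0.698, 1.06 and 1.08 and the Loaded blocks 0.322, 0.37, 0.754 and 0.581, and they overlapped through 1 Loaded block. In muscle *Dbp* stood higher in Loaded, at 0.852 beside 0.641 and a ratio of 0.41 (0.26 to 0.56), and in remaining spots slightly lower, at 0.508 beside 0.61 and a ratio of -0.26 (-0.52 to -0.01). Without Control block 2 the ratio of *Dbp* in remaining spots turned to 0.17. *Tef* had the ratio nearest to 0 of any member in muscle, but not in bone or in remaining spots. Its levels were 1.24 and 1.04 in bone, 1.67 and 1.75 in muscle, and 1.34 and 0.975 in remaining spots. The ratios of *Tef* were -0.25 (-0.58 to 0.08), 0.06 (-0.04 to 0.16) and -0.46 (-0.64 to -0.28), so that counting error alone covered 0 in the first and second.

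*Per1*, *Per2* and *Per3* encode the PERIOD proteins, of which the first and the second carry most of the repression in the loop. *Per2* was the lowest of them in Loaded bone relative to Control, with 89 and 41 UMIs, 0.554 and 0.327 normalized UMIs per spot and a log2 ratio of -0.76 (-1.33 to -0.21). *Per1* had 69 and 42 UMIs in bone and a ratio of -0.36 (-0.95 to 0.21), and *Per3* had 41 and 28 and a ratio of -0.19 (-0.94 to 0.53). The depth in bone thus could not show a difference for *Per1* or *Per3*. In remaining spots all 3 genes lay below 0 with intervals clear of it, at -0.42 (-0.72 to -0.12) for *Per1*, -0.64 (-0.92 to -0.37) for *Per2* and -0.57 (-0.96 to -0.17) for *Per3*. In muscle all 3 lay above 0, and *Per3* had the largest ratio of any member there, 0.70 (0.43 to 0.97) from 254 and 211 UMIs. Blocks of the 2 sections overlapped for each *Per* gene in each region, and in muscle for every member, where 3.58% of all genes had all Loaded blocks above and 5.23% all below.

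**Figure D2:**
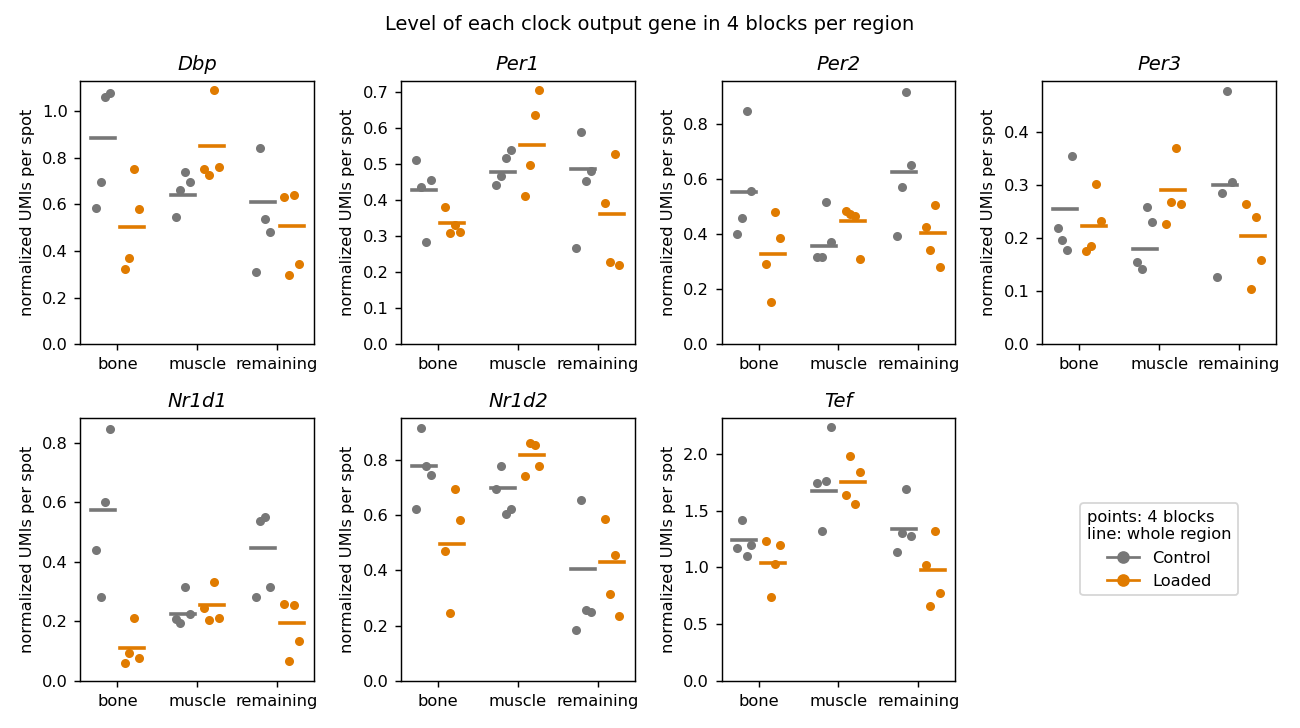
Normalized UMIs per spot (vertical axis) in the 4 blocks of each region are plotted for each gene, gray for Control and orange for Loaded, with a line for the whole region. Among these genes, only for *Nr1d1* in bone and in remaining spots do all 4 Loaded points lie below all 4 Control points.

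The ratios differed between regions of the same sections. For *Nr1d1* the log2 ratio in bone was below that in muscle by a difference of -2.54 (95% interval for counting error -3.51 to -1.68) and below that in remaining spots by -1.15 (-2.15 to -0.25). For *Dbp* bone differed from muscle by -1.23 (-1.70 to -0.77) and for *Per2* by -1.08 (-1.69 to -0.49). The interval of the difference between bone and muscle held 0 for *Per1* (-0.58, -1.19 to 0.03) and *Tef* (-0.31, -0.65 to 0.03), and left it out for the other 5 genes. Between remaining spots and muscle it held 0 for *Nr1d2* (-0.14, -0.48 to 0.19), and the other 6 genes had differences of -1.39 to -0.52. The order of the regions within a section turned accordingly. *Nr1d1* was higher in Control bone than in Control muscle, by 1.35 on the log2 scale (1.00 to 1.69), and lower in Loaded bone than in Loaded muscle, at -1.19 (-2.09 to -0.41). *Dbp* turned in the same way, at 0.46 (0.20 to 0.72) in Control and -0.76 (-1.16 to -0.39) in Loaded. *Tef* was lower in bone than in muscle in both sections, at -0.44 (-0.65 to -0.23) and -0.74 (-1.02 to -0.48).

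Since bone and muscle spots of the sections held unequal amounts of muscle RNA, spots were also compared in classes of muscle share. All classes but those below 5% were set after the values were seen. In bone spots with less than 5% of UMIs in the muscle list (14 Control and 28 Loaded spots), the members had a median of -1.34 and 4 of 7 were past 2-fold lower, as were 14.7% of all genes. There *Dbp* fell from 24 to 5 UMIs, or 0.88 to 0.133 normalized UMIs per spot, a log2 ratio of -2.73 (-4.47 to -1.31), and *Per2* had -1.73 (-2.96 to -0.61). In bone spots with 5 to 10% the median was -0.34 and 2 members were past 2-fold lower (12.9% of all genes), and in those with at least 10% it was -0.13. That last class held 72 Control and 66 Loaded spots, and 5 of 7 members were below 0 in it, as were 48% of all genes. It had no upper limit, and the muscle share of a bone spot reached 37.1% in Control and 27.5% in Loaded. Muscle shares were thus not matched within this class. *Dbp* was not lower in Loaded there, at 0.29 (-0.38 to 0.95), nor was *Per3*, at 0.09 (-1.24 to 1.36). All 7 members thus stood nearer to 0 in the class richest in muscle RNA than in the poorest. *Nr1d1* moved little between them, with -2.31 (-4.10 to -0.83), -2.69 (-4.37 to -1.37) and -2.01 (-4.00 to -0.47) in the 3 classes of bone spots. Outside bone the median of the members rose over 5 classes of muscle share, from -0.78 below 5% to -0.36, -0.01, 0.16 and 0.27 at 30% and above. Below 5%, 2 of 7 were past 2-fold lower, as were 10% of all genes.

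*Nr1d1* was below 0 in each of those 5 classes as well, with -1.48 (-2.26 to -0.75), -1.21 (-1.66 to -0.77), -0.31 (-0.74 to 0.12), -0.64 (-1.31 to 0.02) and -0.09 (-0.62 to 0.41). The last 3 are the muscle spots, whose pooled ratio was 0.18. Their intervals all held 0. Control muscle spots lay mainly in the richest class, 572 spots with 5786370 UMIs beside 273 Loaded spots with 1138730, and in this class *Nr1d1* was low in both sections, at 0.174 and 0.164 normalized UMIs per spot. In the class of 10 to 20% it stood at 0.383 and 0.309. *Per2* lay on either side of 0, with -0.40 (-0.72 to -0.07) at 10 to 20% and 0.33 (-0.03 to 0.68) at 30% and above. *Dbp* was higher in Loaded at 10 to 20%, at 1.01 beside 0.563 and a ratio of 0.84 (0.54 to 1.16), as was *Nr1d2*, at 0.777 beside 0.476 and a ratio of 0.71 (0.37 to 1.05). At 30% and above *Dbp* had -0.08 (-0.35 to 0.17). The pooled value of a member in muscle therefore depends on which muscle spots are compared.

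**Figure D3:**
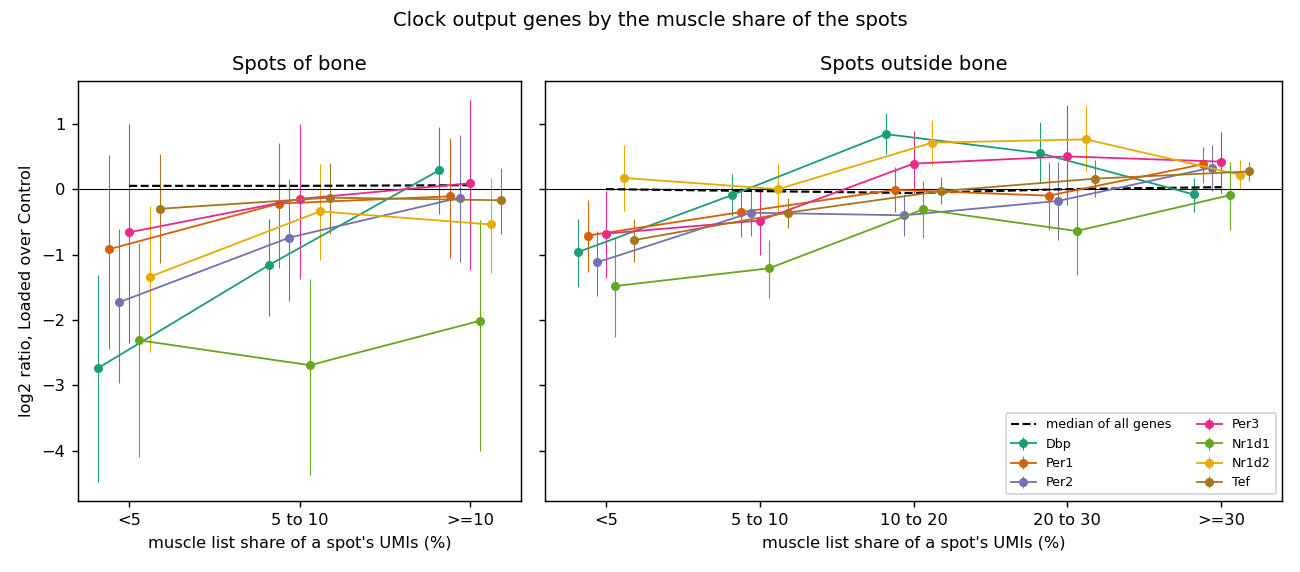
The log2 ratio of Loaded over Control (vertical axis) is plotted by the share of a spot's UMIs in the muscle list (horizontal axis, %), for bone spots and for spots outside bone, with 95% intervals for counting error as bars and the median of all genes as a dashed line. *Nr1d1* lies below 0 in every class, at -2.69 to -2.01 in bone and at -1.48 to -0.09 outside it, while the median of the 7 genes rises with the share, from -1.34 to -0.13 and from -0.78 to 0.27.

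On the map, *Nr1d1* UMIs lay along parts of the outer rim of the tissue, so spots were also compared by their distance from it. The distance of a spot to the nearest position outside the tissue, not counting holes within it, had a median of 346 μm in Control bone and 529 μm in Loaded bone, 361 and 300 μm in muscle, and 557 and 624 μm in remaining spots. Among remaining spots of Control, *Nr1d1* stood at 0.616 normalized UMIs per spot within 350 μm of the rim and at 0.213 at 600 μm or more, a log2 ratio of inner over outer spots of -1.53 (-2.17 to -0.94). In Loaded it stood at 0.268 and 0.118, a ratio of -1.18 (-1.93 to -0.46). In each section 5 of the 7 members were past 2-fold lower in inner than in outer remaining spots, beside 16.3% of all genes in Control and 11.9% in Loaded. *Dbp* had ratios of -1.20 (-1.68 to -0.75) and -1.30 (-1.75 to -0.86), *Per1* of -1.81 and -1.12, and *Nr1d2* of -1.72 and -1.30. Granulocyte genes rose inward, from 0.0599 to 0.432% of UMIs in Control and from 0.112 to 0.823% in Loaded, and erythroid genes from 1.83 to 11.6% and from 1.91 to 11.5%. The part of these cells in the gradient was not tested. Other regions did not share it throughout. In Control muscle *Nr1d1* stood at 0.239 near the rim and 0.244 at 600 μm or more, a ratio of 0.02 (-0.42 to 0.45), and in Loaded muscle at 0.278 and 0.0921, a ratio of -1.60 (-3.24 to -0.34). In Control bone the ratio was -1.39 (-2.37 to -0.52), and in Loaded bone 0.66 (-1.66 to 3.93) from 2 and 8 UMIs.

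*Nr1d1* was lower in Loaded bone in each class of rim distance. Distances were not matched within the outermost class, since bone spots began at 100 μm from the rim in Control and at 300 μm in Loaded. Within 350 μm *Nr1d1* had 66 UMIs in 71 Control spots and 2 in 16 Loaded spots, a log2 ratio of -3.05 (-6.12 to -1.14). The muscle list made up 6.94% of UMIs in these Control spots and 7.16% in these Loaded spots, so that this comparison was at like muscle shares. Granulocyte genes made up 0.074% and 0.0591% of UMIs there, but erythroid genes were unequal, at 2.55% and 0.906%. *Per2* was past 2-fold there as well, at -1.09 (-2.36 to -0.03), so that 2 of 7 members were, beside 17.3% of all genes. From 350 to 600 μm the ratio of *Nr1d1* was -2.75 (-4.83 to -1.06), from 13 and 4 UMIs (muscle shares 14.3% and 9.02%). At 600 μm or more it was -0.99 (-2.47 to 0.39), from 13 and 8 (muscle shares 31.3% and 8.66%). The deepest class thus had an interval that held 0. In remaining spots the 3 classes gave -1.20 (-1.71 to -0.71), -0.79 (-1.74 to 0.10) and -0.85 (-1.67 to -0.03). The median over the members in bone was -0.36, -0.30 and -0.71. In remaining spots it was -0.47 near the rim, 0.13 from 350 to 600 μm and -0.34 farther in, so the lower levels of the whole group there did not extend to the middle class. *Per1* in remaining spots lay below 0 only near the rim, at -0.52 (-0.92 to -0.13). Its ratios farther in were 0.19 (-0.60 to 0.97) and 0.17 (-0.52 to 0.89). *Per2* had -0.74 (-1.13 to -0.36), -0.39 (-1.08 to 0.27) and -0.17 (-0.72 to 0.40) in the 3 classes there. *Per3* had -0.47 (-1.03 to 0.08), 0.13 (-0.78 to 1.03) and -0.84 (-1.65 to -0.04). Intervals clear of 0 were thus those of *Per2* near the rim and of *Per3* farthest in. In muscle the median was 0.34, 0.27 and -0.52, and *Nr1d1* turned from 0.22 (-0.10 to 0.53) near the rim to -1.40 (-3.08 to -0.10) in the deepest muscle spots, where 60 Control and 5 Loaded UMIs were counted and 13.6% of all genes were past 2-fold lower. In those deepest spots the muscle list made up 31.7% of UMIs in Control and 21.8% in Loaded, granulocyte genes 0.0809% and 0.364%, and erythroid genes 1.18% and 4.59%, whose part in the turn was not tested. These classes too were set after the map had been seen.

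**Figure D4:**
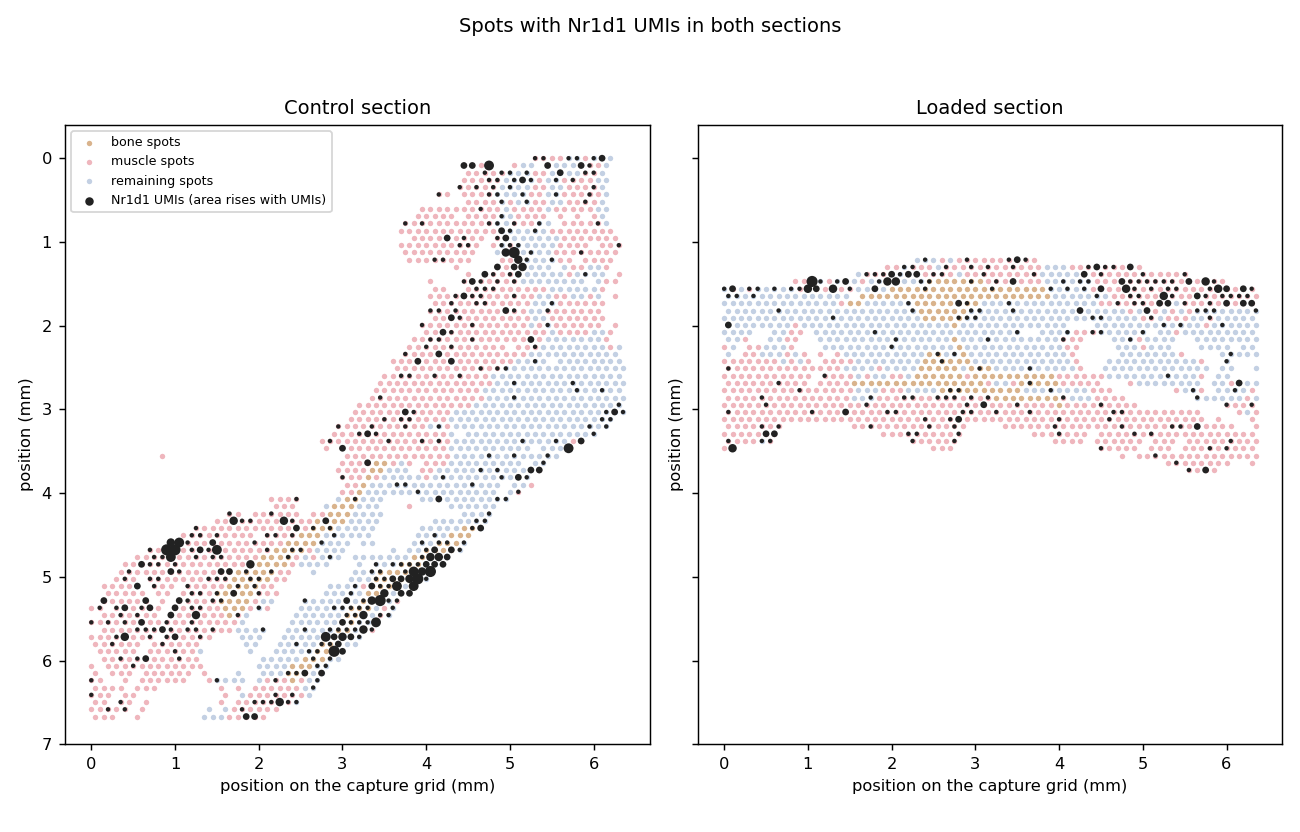
Each spot is drawn at its position on the capture grid (both axes in mm), colored as bone, muscle or remaining, with black dots for spots holding *Nr1d1* UMIs whose area rises with the count. Black dots line parts of the outer rim in both sections and are also scattered through muscle, and bone spots hold them often in Control (61 of 131 spots) and seldom in Loaded (13 of 146 spots).

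Muscle spots were further divided in each section into near, middle and far groups of about equal size by distance to the nearest bone spot. The median distances were 361, 1249 and 2951 μm in Control but 265, 721 and 1587 μm in Loaded, so the groups are not at matched distances. *Dbp* had log2 ratios of 0.35 (0.08 to 0.62), 0.21 (-0.06 to 0.48) and 0.50 (0.24 to 0.77), and *Per3* had 0.88 (0.40 to 1.36), 0.81 (0.33 to 1.29) and 0.24 (-0.24 to 0.72). *Per2* had 0.36 (0.02 to 0.70) near bone, 0.89 (0.51 to 1.26) in the middle and -0.43 (-0.81 to -0.07) far from it. *Nr1d1* had 0.01, 0.49 and -0.11, with intervals that all reached 0.

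The share of spots with a UMI was compared after spots had been brought to the same depth. Every spot was thinned to 1000 UMIs, since deeper spots show more genes, and spots with fewer were left out (15 Loaded and 0 Control bone spots, 36 and 170 muscle spots, 25 and 86 remaining spots). *Nr1d1* was then found in 16% of Control bone spots (exact binomial 95% interval 10.2 to 23.5) and 3.05% of Loaded bone spots (0.838 to 7.63), and in 9.73% (7.54 to 12.3) and 5.75% (3.99 to 7.98) of remaining spots. Without thinning it was found in 61 of 131 and 13 of 146 bone spots. The shares for *Dbp* in bone were 23.7% (16.7 to 31.9) and 13.7% (8.35 to 20.8), and those in muscle 10.9% (8.88 to 13.1) and 18.5% (15.6 to 21.7). In 2 cases the share and the level differed in direction, within counting error. *Dbp* was found in 11.5% (9.09 to 14.2) of Control and 12.2% (9.63 to 15.2) of Loaded remaining spots, and *Nr1d1* in 5.84% (4.38 to 7.6) and 5.23% (3.65 to 7.23) of muscle spots. Shares were nearly equal for *Tef* in muscle, at 34% (30.8 to 37.2) and 34.2% (30.5 to 37.9). These intervals cover counting error only.

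The activators of the loop were rarely captured and gave no clear counterpart to the members. *Arntl*, which runs in antiphase to them, had 13 and 10 UMIs in bone, a log2 ratio of -0.02 (-1.37 to 1.28), and 25 and 31 in remaining spots, 0.20 (-0.61 to 1.02). In muscle it had 152 and 63, a ratio of -0.30 (-0.75 to 0.13). *Clock* had ratios of -0.06 (-1.87 to 1.66) in bone, 0.59 (0.03 to 1.14) in muscle and -0.32 (-1.05 to 0.40) in remaining spots. *Npas2* had 2 and 4 UMIs in bone, too few for a ratio, and gave 0.97 (-0.94 to 2.87) and -0.48 (-2.14 to 1.12) elsewhere. A difference of *Arntl* within these intervals was not detectable at this depth.

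Of 5 activators and antiphase genes (these 3 with *Nfil3* and *Rora*), 4 could be compared in bone and 4 lay below 0, with a median of -0.50 and 1 past 2-fold, *Nfil3* (19 and 6 UMIs, -1.31, -2.92 to 0.07). The median was -0.30 in muscle and -0.11 in remaining spots. The list of the other repressors and *Hlf* (*Cry1*, *Cry2*, *Bhlhe40*, *Bhlhe41*, *Hlf*) had medians of -0.30, -0.47 and -0.35, and *Hlf* alone was past 2-fold, in bone, with 16 and 3 UMIs and a ratio of -2.06 (-4.48 to -0.25). *Hlf* was also lower in Loaded muscle, at -0.69 (-1.22 to -0.18), where *Dbp* was higher, and in remaining spots, at -0.87 (-1.63 to -0.14). *Cry2* was lower in Loaded in all 3 regions, at -0.92 (-1.94 to 0.01), -0.81 (-1.18 to -0.44) and -0.82 (-1.35 to -0.31), and was singled out after its values were seen. Among the kinases and ubiquitin ligases that act on PER and CRY proteins, whose medians were 0.11, 0.22 and 0.07, *Csnk1e* was past 2-fold in bone, with 57 and 21 UMIs and a ratio of -1.08 (-1.88 to -0.34). Among further rhythmic genes, *Wee1*, a cell cycle kinase under clock control, was past it in bone (58 and 18 UMIs, -1.33, -2.18 to -0.55) and in remaining spots (109 and 54 UMIs, -1.13, -1.63 to -0.64), and *Noct*, a rhythmic phosphatase, in muscle (407 and 90 UMIs, -1.21, -1.56 to -0.88) and in bone (30 and 10 UMIs, -1.23, -2.43 to -0.16). In muscle *Wee1* had 0.28 (-0.13 to 0.68), an interval that held 0. The medians of these 4 rhythmic genes were -0.96, -0.38 and -0.60 in bone, muscle and remaining spots. *Usp2* was higher in Loaded remaining spots (89 and 165 UMIs, 0.78, 0.40 to 1.17). It was lower in bone (-0.68, -1.30 to -0.09) and in muscle (-0.54, -0.67 to -0.42). *Leo1* had 0.82 (-0.04 to 1.71) in bone, -0.21 (-0.62 to 0.18) in muscle and -0.64 (-1.02 to -0.26) in remaining spots. No gene of these 4 lists with at least 10 UMIs was past 2-fold higher in Loaded in any region, beside 11.2% of all genes in bone, 7.9% in muscle and 4.04% in remaining spots. Past 2-fold lower lay 9.5% of all genes in bone, 4.48% in muscle and 7.36% in remaining spots. The medians of all genes were 0.05, 0.12 and -0.05.

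**Figure D5:**
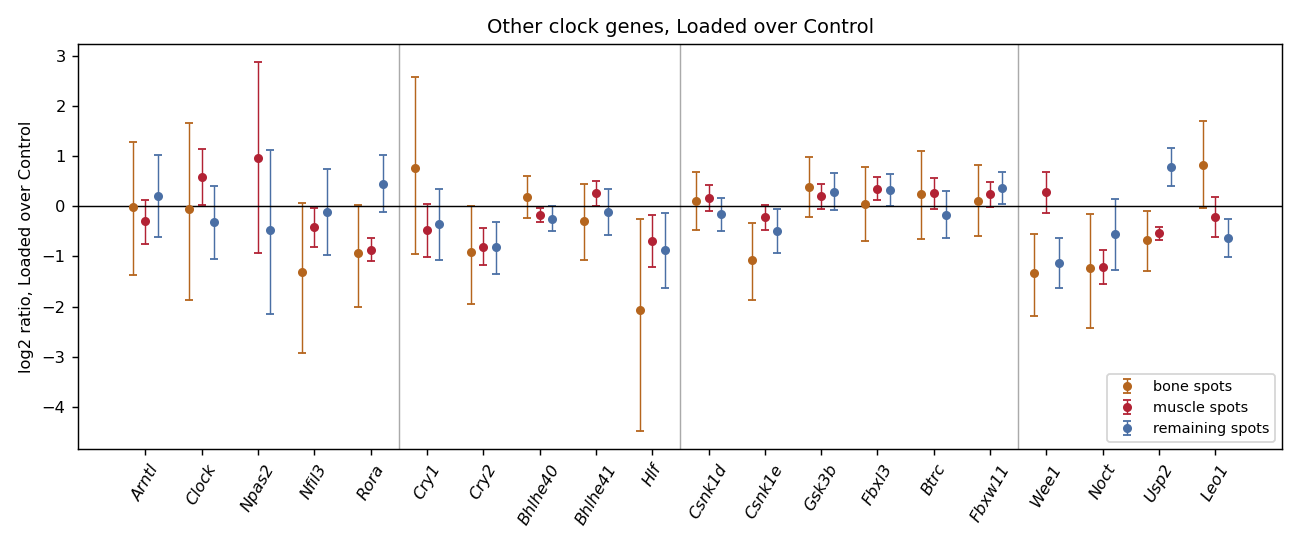
The log2 ratio of Loaded over Control (vertical axis) is plotted for the other clock genes with at least 10 UMIs in a region, by list from left to right (activators and antiphase genes, other repressors and *Hlf*, kinases and ubiquitin ligases, further rhythmic genes), with 95% intervals for counting error. *Noct* in muscle (-1.21) and *Wee1* in bone (-1.33) and remaining spots (-1.13) lie past 2-fold lower. *Arntl* lies at -0.02 in bone, -0.30 in muscle and 0.20 in remaining spots, with intervals that all hold 0.

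The genes whose levels were most like those of the members were sought over the 24 blocks (4 blocks, 3 regions, 2 sections), by Pearson correlation with the mean of the standardized members. Blocks share sections and libraries, so the values are a description. Of 7958 genes ranked, those closest to the members included *Klf9* (0.83), *Sorbs3* (0.82), *Csnk1e* (0.81) and *Rgmb* (0.79). The members themselves had 0.54 (*Nr1d2*) to 0.84 (*Dbp*), each set against the mean of the rest. *Sorbs3* had log2 ratios of -1.43, -0.23 and -0.54 in bone, muscle and remaining spots, and *Klf9*, a transcription factor, had -0.81, -0.32 and -0.53.

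Positions were taken from GRCm38. *Nr1d1* lies on chromosome 11 from 98767932 to 98775333 on the minus strand, and 1075 bases at its 3′ end overlap *Thra*, a gene of the opposite strand. *Dbp*, on chromosome 7 from 45705088 to 45710203, overlaps *Sphk2* by 737 bases on the other strand, and *Per3*, on chromosome 4 from 151003652 to 151044665, lies within the span of *Camta1*. *Thra* had 33 and 29 UMIs in bone and a log2 ratio of 0.17 (-0.60 to 0.93), and 0.11 (-0.33 to 0.56) in remaining spots. *Sphk2* had -0.04 (-0.86 to 0.75) in bone, and *Camta1* had -0.06 (-1.49 to 1.31). In muscle *Thra* had 0.71 (0.42 to 0.99), with all Loaded blocks above all Control blocks, and *Camta1* had 0.41 (0.01 to 0.79), the same direction as *Per3* there.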

How the data were processed

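The deposited values are raw UMI counts per gene and spot, which the authors made with SpaceRanger 2.0.0 (mm10 in the submitters' processing notes) and did not normalize. Bone barcodes came from the study's supplement. Spots with at least 500 UMIs and 250 genes were kept (1898 of 1962 Control, 1431 of 1436 Loaded). Counts summed over a region were divided by summed scran 1.30.0 size factors from 1 fit over all spots (R 4.3.3). The study tested spots with DESeq2, which was not repeated, since spots of 1 section are not replicates. Intervals were computed with scipy 1.17.1. The log2 ratio and its interval were tested on region sums simulated with counting error alone, without variation between spots or sections. The other steps were not tested in this way. Blocks divide the spots of a region at the middle by column, then by row. Likeness used log2(normalized count per spot + 0.01) of genes with at least 200 UMIs.

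Members and lists were chosen with earlier results of these data known. Named are all members, *Arntl*, *Clock*, *Npas2*, genes of 4 clock lists past 2-fold in a region with at least 50 UMIs there, and the 5 genes most like the members. *Nfil3*, *Rora*, *Hlf*, *Cry2*, *Usp2* and *Leo1* were named after their values were seen, as was *Noct* in bone. A gene among the 5 most like the members and a gene of the clock lists are not reported here, and list medians leave the latter out. Alternatives were library totals, edgeR 4.0.16 TMM and DESeq2 1.42.0 factors, spot and gene limits, and each block left out.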

Additional observations from a re-analysis of the deposited data

How the results depend on the processing

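The median log2 ratio of the members in muscle was 0.53 with library totals and 0.03 with TMM or DESeq2 factors. These scalings moved the median of all genes there to 0.42, -0.09 and -0.08. Each shifts the ratios of all genes of a region by the same amount. The distance of the members from that median, 0.11, therefore could not change and says nothing about the scaling. With TMM and DESeq2 factors *Nr1d1* (-0.02 and -0.01) and *Tef* (-0.14 and -0.13) changed sign in muscle, as did *Per2* (-0.14), *Nr1d1* (-0.15) and *Tef* (-0.04) with equal weight per spot. With a muscle limit of 5% the median in remaining spots was -0.78 and 2 members were past 2-fold lower, and with a limit of 20% the count was 0 and *Dbp* there turned to 0.29. With spots below a muscle share of 5% the medians were -1.34 in bone and -0.78 in remaining spots, with 4 and 2 members past 2-fold. At muscle shares of 5 to 10% the count in bone was 2, and at 10 to 20% the median in muscle was -0.01. Within 350 μm of the rim the count in bone was 2. At 600 μm or more the median in muscle was -0.52 with a count of 1, and the count in remaining spots was 0. From 350 to 600 μm the median in remaining spots was 0.13 with a count of 0. At 1.5-fold the counts lower were 4 in bone (20.4% of all genes) and 2 in remaining spots (18.9%), and 1 member was higher in muscle (21.4%). With each block left out, the count was 1 to 3 in bone (3 without Loaded block 3) and 0 to 1 in remaining spots (0 without Control or Loaded block 2). The cause was not tested. Of 357 values of single members under the alternatives other than those added after the values were seen, 315 stayed within the interval of the reported value. Many of these come from leaving out 1 block and share most of their counts with the reported value. Of 119 values in the classes of muscle share and rim distance, 75 stayed within it and 44 fell outside. In bone no scaling changed a sign. No paired analysis was possible because each group has 1 section. The depth in bone, 14 to 199 UMIs of a member, limits what can be seen there.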

Other observations

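Of genes known to respond to glucocorticoids, some were lower in Loaded in bone, muscle and remaining spots. *Tsc22d3* (GILZ), an abundant target, had log2 ratios of -0.86 (-1.11 to -0.61) in bone, -0.67 (-0.75 to -0.58) in muscle and -0.70 (-0.83 to -0.56) in remaining spots. *Zbtb16* had -1.88 (-3.30 to -0.68), -1.93 (-2.40 to -1.49) and -0.91 (-1.66 to -0.18). *Sgk1* had -0.97 (-1.68 to -0.29) in bone, -0.48 (-0.68 to -0.28) in muscle and -0.23 (-0.67 to 0.21) in remaining spots. *Fkbp5* had -0.59 (-1.09 to -0.11), -0.14 (-0.28 to 0.01) and -0.29 (-0.56 to -0.02) in the same order. Others were higher. The metallothionein genes *Mt1* and *Mt2* stood at 0.52 (0.28 to 0.77) and 0.47 (0.06 to 0.88) in bone. In muscle they had 0.03 (-0.08 to 0.13) and 0.37 (0.21 to 0.52), and in remaining spots -0.37 (-0.51 to -0.23) and 0.81 (0.55 to 1.07). Of the 6 genes in this list 1 was past 2-fold lower in bone (9.5% of all genes), 1 in muscle (4.48%) and 0 in remaining spots (7.36%). This list was not compared at like muscle shares, which were unequal in bone and muscle spots.

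Of the immediate early genes, *Nr4a1* had -1.62 in bone (106 and 27 UMIs), -1.22 (-1.38 to -1.05) in muscle and -0.73 (-1.14 to -0.33) in remaining spots. In muscle *Junb* had 0.87 (0.56 to 1.19), *Ier2* 0.74 (0.43 to 1.06) and *Egr1* 0.64 (0.34 to 0.94). The intervals of *Fos* (0.17, -0.25 to 0.57) and *Fosb* (0.76, -0.18 to 1.69) held 0 there. The list had medians of -0.32, 0.69 and -0.34 in bone, muscle and remaining spots, beside 0.05, 0.12 and -0.05 over all genes. These genes were not compared at like muscle shares. Genes named in this section were chosen after their values were seen.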
